A study of Mus musculus with 18 samples.

Results

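Cytosolic DNA sensing was described through 8 genes, Cgas, Tmem173, Tbk1, Irf3, Trex1, Aim2, Zbp1 and Ifi204, of 55487 genes counted in each library. They were taken by symbol, and all 8 symbols mapped to 1 Ensembl gene each. RNA was sequenced from the subcutaneous white adipose tissue (sWAT) of male mice aged 12 weeks, 4 Ctrl and 4 Csn8AKO, and from the brown adipose tissue (BAT) of male mice aged 4 weeks, 5 Ctrl and 5 Csn8AKO, with 1 mouse per library. All of the mice were killed after a 4 h fast on chow and carried the floxed Csn8 alleles (Csn8 f/f), and the Ctrl littermates, labelled WT, had no Cre. The Csn8AKO mice also carried Cre under the adiponectin promoter, which is active in adipocytes and not in the immune, vascular or stromal cells of the same tissue, and was used to delete Csn8, which encodes a subunit of the COP9 signalosome, in adipocytes. The question was whether this deletion went with a change of the DNA sensing genes in either fat depot. Depot and age differed together between the 2 tissues and cannot be told apart.

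Cytosolic DNA is bound by cGAS, the product of Cgas, which makes the messenger cGAMP. cGAMP is bound by STING, an endoplasmic reticulum protein encoded by Tmem173, and STING then recruits the kinase TBK1, which phosphorylates the transcription factor IRF3 and so turns on type I interferon genes. TREX1 is an exonuclease that degrades cytosolic DNA and so limits the pathway. AIM2 and IFI204 are DNA-binding proteins of the interferon-inducible PYHIN family, AIM2 assembling an inflammasome with ASC and caspase-1, and ZBP1 binds nucleic acids in the Z form and can engage RIPK3 in necroptosis. In adipose tissue the sensors are best known from macrophages, although cGAS and STING are also made by adipocytes.

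In BAT, Aim2, Zbp1 and Ifi204 rose in Csn8AKO mice, by log2 fold changes of 1.54 (SE 0.30), 1.36 (SE 0.22) and 0.97 (SE 0.18). Cgas and Tmem173 had BAT log2 fold changes of 0.53 (SE 0.23) and 0.54 (SE 0.21) that did not pass the adjusted threshold, and those of the kinase gene Tbk1 and of Irf3 were 0.09 (SE 0.08) and 0.06 (SE 0.08). In sWAT, 0 of the 7 members that could be tested passed. Of these, 2, Zbp1 and Ifi204, had an unadjusted edgeR p under 0.05, a threshold at which the share of all genes was not counted. The macrophage marker sum was higher in the same Csn8AKO libraries, and the part of macrophages in the results was not tested. In bulk tissue, more cells of a type and more RNA per cell cannot be told apart.

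Some members share sequence with other genes, which bears on what could be counted. Trex1 (ENSMUSG00000049734, chromosome 9, 109057933 to 109059734, minus strand, GRCm38) had 0 reads in all 18 libraries. All 1147 of its exon bases are also exon bases of Atrip on the same strand, so that 0 bases are left on which a read could be assigned to Trex1 without ambiguity, and only unambiguous reads had been counted. Its level was therefore not measured here. The first bases of its coding sequence are shown because the whole coding sequence of 942 bases was found inside 2 annotated transcripts of Atrip. The stretch lies at chr9:109058802-109058921 on the minus strand of GRCm38, with the start codon in capitals.
Trex1: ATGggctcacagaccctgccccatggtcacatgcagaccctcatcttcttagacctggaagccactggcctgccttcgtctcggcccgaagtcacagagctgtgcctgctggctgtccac
Reads were assigned to Atrip itself, whose product is a partner of the checkpoint kinase ATR, in every library, between 166 and 1080 of them.

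Ifi204 (ENSMUSG00000073489, chromosome 1, 173747293 to 173766943, minus strand) has a near copy, Ifi211, in the same gene cluster. Of the 3412 stretches of 150 bases, the length of a read, in its transcripts, 231 (6.77%) also occur in transcripts of Ifi211, and reads from those stretches alone could not have aligned uniquely. The first 5 coding exons of both genes were identical at between 88.9% and 99.6% of their bases. A stretch of the first coding exon is shown because it holds the only base that differs between the genes in that exon of 265 bases, given in capitals. The Ifi204 stretch lies at chr1:173761605-173761724 and the Ifi211 stretch at chr1:173907603-173907722, both on the minus strand of GRCm38.
Ifi204: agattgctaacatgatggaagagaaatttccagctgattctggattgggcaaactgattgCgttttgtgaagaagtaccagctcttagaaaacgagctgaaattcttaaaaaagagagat
Ifi211: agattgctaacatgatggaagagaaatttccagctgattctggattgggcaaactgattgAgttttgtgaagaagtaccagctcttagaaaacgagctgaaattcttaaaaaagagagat
The split of reads between Ifi204 and Ifi211 is therefore uncertain over the stretches that they share. Cgas shares 53 of its 4269 stretches of 150 bases with Gm8093, which lies over 201 of the 4126 exon bases of Cgas on the opposite strand, and 88 of the 3442 exon bases of Irf3 lie opposite exons of Bcl2l12. Whether the strand was used in counting was not given in the sources used here. Tmem173, Tbk1, Aim2 and Zbp1 shared no exon base and no such stretch with another gene. On GRCm38, Cgas (ENSMUSG00000032344) lies on chromosome 9 from 78430526 to 78443237, Tbk1 (ENSMUSG00000020115) on chromosome 10 from 121546455 to 121586787 and Zbp1 (ENSMUSG00000027514) on chromosome 2 from 173206612 to 173218923, all on the minus strand. Irf3 (ENSMUSG00000003184) lies on chromosome 7 from 44997648 to 45002848 and Aim2 (ENSMUSG00000037860) on chromosome 1 from 173350879 to 173466040, both on the plus strand, and Tmem173 is ENSMUSG00000024349.

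The libraries held 15835721 to 23109603 counted reads in sWAT and 26658593 to 66719937 in BAT. The ribosomal RNA share was 1.81% to 48.3% in sWAT and 0.866% to 15.2% in BAT, and the test between genotypes gave p = 0.343 and 0.627 (two-sided exact permutation test). The summed level of 10 T and NK cell markers was 312 CPM in the library of sWAT Ctrl replicate 1 and 432 CPM in that of sWAT Csn8AKO replicate 2, against 11.8 to 47.3 CPM in the other 6 sWAT libraries. Those 2 libraries also had the highest B cell marker sums of the sWAT libraries, 442 and 1055 CPM. In BAT, 6 skeletal muscle markers summed to 114 and 200 CPM in Csn8AKO replicates 1 and 5 and to 1.34 to 2.44 CPM in the other 8 libraries. In sWAT the muscle sums ran from 45.9 to 2720 CPM. The brown adipocyte markers summed to 2480 to 7037 CPM in BAT and to 11.2 to 67.4 CPM in sWAT, as the labels have it. The targeted gene, listed as Cops8 (ENSMUSG00000034432), had 35.0 ± 0.91 CPM (SD, n = 4) in Ctrl and 32.2 ± 3.0 CPM (n = 4) in Csn8AKO sWAT (log2 fold change -0.12, SE 0.11, edgeR adjusted p = 0.623), and 39.4 ± 3.2 CPM (n = 5) and 32.1 ± 3.6 CPM (n = 5) in BAT (log2 fold change -0.30, SE 0.09, edgeR adjusted p = 0.0211). The BAT call for Cops8 was lost when counts were scaled by library size alone and without BAT Ctrl replicate 5, Csn8AKO replicate 1 or Csn8AKO replicate 4. The count covers the whole gene in whole tissue, so it does not check the deleted exons by themselves. CPM are counts relative to the library size scaled by TMM factors, and called means a Benjamini-Hochberg adjusted p under 0.05 over all genes tested in edgeR's quasi-likelihood test.

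Compared per length across all 18 libraries, the members at like levels in both tissues were Irf3 and Tbk1. In sWAT Ctrl mice, Ifi204 had 13.3 ± 3.7 FPKM (reads per kb of exon and per unit of TMM-scaled library size, SD, n = 4), Irf3 11.9 ± 0.72, Tbk1 9.74 ± 0.50, Tmem173 5.61 ± 2.5, Zbp1 3.69 ± 1.2, Aim2 1.20 ± 0.63 and Cgas 0.551 ± 0.15. In that order the ranges of Ifi204 and Irf3, of Tbk1 and Tmem173, and of Tmem173 and Zbp1 overlapped. The ranges of the other neighbours did not. Within each of these libraries, however, Tmem173 lay above Zbp1. Tbk1 lay above Tmem173 in all of them but Ctrl replicate 1 (9.02 against 9.29 FPKM), a library with high T and NK cell markers. In BAT Ctrl mice the order was Irf3 with 12.9 ± 1.0 FPKM (SD, n = 5), Tbk1 with 9.91 ± 0.95, Tmem173 with 1.47 ± 0.31, Ifi204 with 0.886 ± 0.21, Zbp1 with 0.326 ± 0.051, Cgas with 0.243 ± 0.063 and Aim2 with 0.129 ± 0.042. There the ranges of Tmem173 and Ifi204 and of Zbp1 and Cgas overlapped, and the lowest Cgas value lay just above the highest Aim2 value. Within each Ctrl BAT library, Tmem173 lay above Ifi204 and Zbp1 above Cgas. In Csn8AKO mice Ifi204 led in sWAT with 24.8 ± 8.0 FPKM, above Irf3 with 11.2 ± 2.4 in every library, and in BAT Aim2 at 0.364 ± 0.12 stood beside Cgas at 0.343 ± 0.086.

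**Figure D1:**
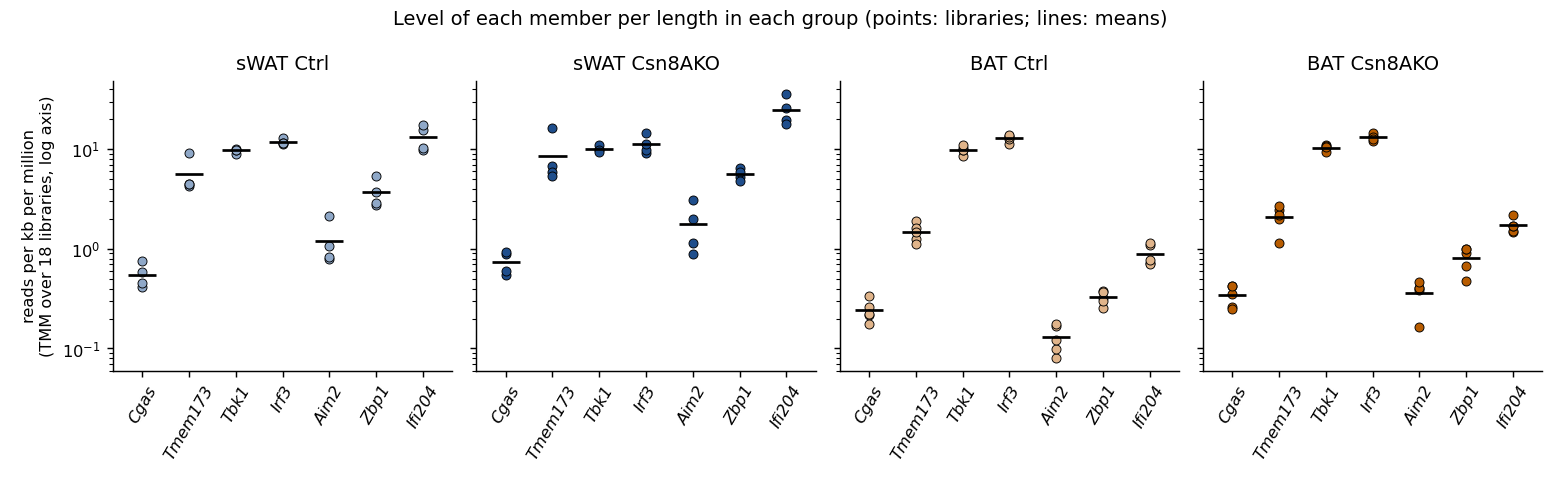
Level of 7 members in each of the 4 groups, as FPKM with TMM factors over 18 libraries, on a log axis, with each point 1 library and each line a group mean. Tbk1 and Irf3 stay near 10 in every group, whereas Ifi204, Zbp1 and Aim2 are higher in sWAT than in BAT in every library.

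The tissues differed for the sensors and not for the kinase and its target. In Ctrl mice the mean level of Ifi204 was 15.0 times as high in sWAT as in BAT, that of Zbp1 11.3 times, that of Aim2 9.31 times, that of Tmem173 3.81 times and that of Cgas 2.27 times, and the ranges of these 5 genes did not overlap between the tissues. For Tbk1 and Irf3 the ratios were 0.984 and 0.918, with overlapping ranges. The macrophage marker sum was 8.26 times as high in sWAT as in BAT of Ctrl mice. In Csn8AKO mice the same ratios were 14.4 for Ifi204, 6.95 for Zbp1, 4.90 for Aim2, 4.12 for Tmem173, 2.16 for Cgas and 5.23 for the macrophage sum. These ratios describe depots of mice of different ages and were not tested. The share of all genes whose ranges do not overlap between the tissues was not counted, so the separation is not shown to be particular to these genes.

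In BAT, 3 of the 7 members tested were called higher and 0 lower in Csn8AKO mice, against 16.0% of 22345 genes called higher and 15.8% called lower (31.9% in either direction). Zbp1, the Z-form nucleic acid sensor, had 1.29, 1.10, 0.871, 1.25 and 1.03 CPM in the 5 Ctrl libraries and 3.21, 1.62, 2.30, 3.42 and 3.51 CPM in the 5 Csn8AKO libraries. Every Csn8AKO value lay above every Ctrl value. The log2 fold change of Zbp1 was 1.36 (95% CI 0.88 to 1.83, edgeR adjusted p = 3.78e-04). Ifi204 had 2.48, 3.76, 2.40, 3.91 and 2.69 CPM in Ctrl BAT and 5.18, 5.20, 7.66, 5.96 and 6.02 CPM in Csn8AKO BAT. Its groups did not overlap either. Its log2 fold change was 0.97 (95% CI 0.59 to 1.36, edgeR adjusted p = 8.87e-04). Groups that did not overlap with the Csn8AKO values higher were found for 10.1% of the genes tested in BAT, with the values lower for 10.9% and in either direction for 21.0%.

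Aim2, the DNA sensor of an inflammasome, was the least abundant member per length in Ctrl BAT, with 17 to 35 reads per Ctrl library and 14 to 100 per Csn8AKO library. It had 0.569, 0.593, 0.274, 0.332 and 0.415 CPM in Ctrl and 1.42, 0.552, 1.31, 1.37 and 1.60 CPM in Csn8AKO BAT. Of the Csn8AKO libraries, 4 lay above all Ctrl libraries, and replicate 2, with 14 reads, lay between them. The log2 fold change of Aim2 was 1.54 (95% CI 0.89 to 2.19, edgeR adjusted p = 0.00152). The calls of Aim2, Zbp1 and Ifi204 in BAT were kept under all 20 alternatives tried for each, including each library left out in turn and the libraries with muscle markers, Csn8AKO replicates 1 and 5, left out together, where the log2 fold changes were 1.34, 1.17 and 1.04.

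Cgas and Tmem173, the sensor and adaptor at the head of the STING arm, were higher on average in Csn8AKO BAT but were not called. Tmem173 had 4.99, 3.35, 2.94, 4.30 and 3.89 CPM in Ctrl and 5.38, 3.04, 6.60, 5.92 and 7.32 CPM in Csn8AKO BAT, so that 4 of 5 Csn8AKO libraries lay above all Ctrl libraries and replicate 2 lay among the lowest. Its log2 fold change was 0.54 (95% CI 0.09 to 1.00, edgeR adjusted p = 0.0663). Without Csn8AKO replicate 2 the adjusted p was 0.00521 at a log2 fold change of 0.69, and without Ctrl replicate 1 it was 0.0449. Cgas had 1.34, 1.05, 0.855, 0.701 and 0.883 CPM in Ctrl and 1.08, 0.986, 1.72, 1.42 and 1.74 CPM in Csn8AKO BAT, with 3 of 5 Csn8AKO values above all Ctrl values. Its log2 fold change was 0.53 (95% CI 0.02 to 1.03, edgeR adjusted p = 0.103). Limma voom called both genes (20.1% of genes called higher), DESeq2 (18.1%) and scaling by library size alone (18.7%) called Tmem173 and not Cgas, and the fit of all 4 groups (11.5%) called neither.

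Tbk1, the kinase, ran from 31.9 to 42.2 CPM in Ctrl BAT and from 36.1 to 41.5 CPM in Csn8AKO BAT, the groups overlapping throughout. Its log2 fold change was 0.09 with a 95% CI of -0.08 to 0.27 (edgeR adjusted p = 0.418). Irf3 ran from 37.2 to 46.4 CPM in Ctrl and from 40.8 to 49.2 CPM in Csn8AKO BAT, with a log2 fold change of 0.06 and a 95% CI of -0.11 to 0.24 (edgeR adjusted p = 0.602). These intervals are the narrowest among the members in BAT. Over 1000 reads stood behind every BAT value of either gene.

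**Figure D2:**
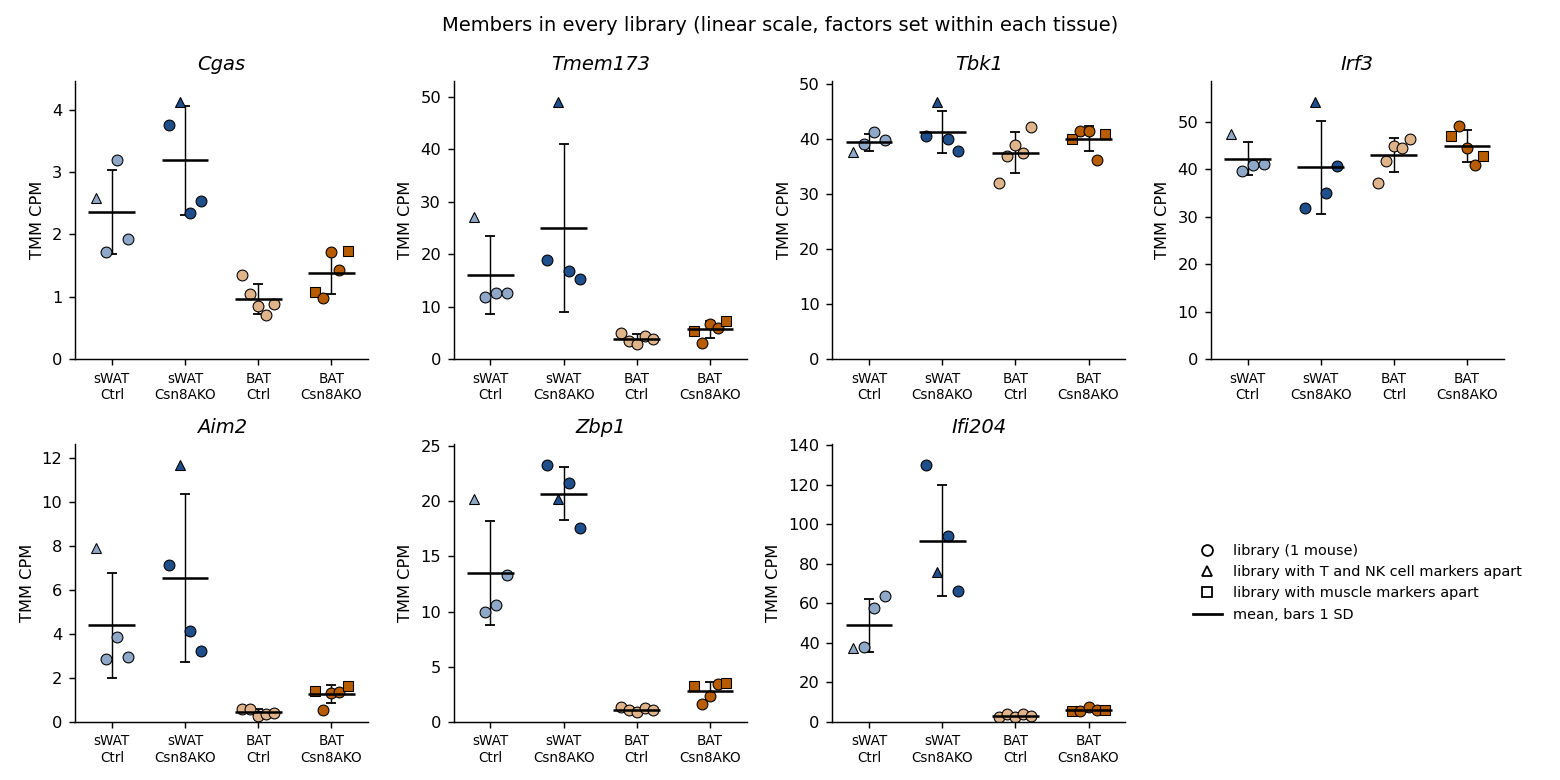
TMM-scaled CPM of 7 members in every library, by group, on linear axes that start at 0, with factors set within each tissue. Triangles are the 2 sWAT libraries with high T and NK cell markers, squares the 2 BAT libraries with muscle markers, lines group means and bars 1 SD. In BAT every Csn8AKO library lies above every Ctrl library for Zbp1 and Ifi204, and in sWAT for Ifi204, and the triangles are the highest of their groups for Tmem173, Irf3 and Aim2.

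In sWAT, 0 of the 7 members tested were called, against 2.30% of 18843 genes called higher and 3.00% called lower in edgeR (5.31% in either direction). DESeq2 (4.84% of genes called higher), limma voom (5.72%) and the fit of all 4 groups together (4.64%) each called 1, and scaling by library size alone (0.563%) called 0. Ifi204 had 37.4, 37.6, 57.3 and 63.4 CPM in the 4 Ctrl libraries and 130, 75.8, 94.2 and 66.2 CPM in the 4 Csn8AKO libraries. The lowest Csn8AKO value lay just above the highest Ctrl value, and groups that did not overlap in this direction were found for 5.80% of genes, in the other direction for 8.23% and in either for 14.0%. The log2 fold change of Ifi204 was 0.90 (SE 0.25, 95% CI 0.35 to 1.46, edgeR adjusted p = 0.0676), and it was called by DESeq2 (adjusted p = 0.0118) and in the fit of all 4 groups (adjusted p = 0.0152). Over its alternatives the adjusted p ran from 0.0118 to 0.321.

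Zbp1 had 20.2, 9.93, 10.6 and 13.3 CPM in Ctrl and 23.3, 20.2, 21.6 and 17.6 CPM in Csn8AKO sWAT. Ctrl replicate 1, the Ctrl library with high T and NK cell markers, was as high as the Csn8AKO libraries, and the other 3 Ctrl libraries lay below all of them. The log2 fold change was 0.61 (95% CI 0.11 to 1.12, edgeR adjusted p = 0.159). Without Ctrl replicate 1 it was 0.87 (adjusted p = 0.0291, 1.96% of genes called higher), and without both libraries with high T and NK cell markers it was 0.89 (adjusted p = 0.0132), at which setting 5.35% of genes were called higher. The adjusted p of Zbp1 in sWAT ran from 0.0132 to 0.863 over its alternatives.

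In sWAT the log2 fold changes of Tmem173 and Aim2 moved with which of those 2 libraries was left out. Tmem173 had 27.1, 11.7, 12.6 and 12.5 CPM in Ctrl and 18.8, 48.9, 16.8 and 15.3 CPM in Csn8AKO sWAT, the highest value of each group being the library with high T and NK cell markers. Its log2 fold change was 0.64 (95% CI -0.35 to 1.64, edgeR adjusted p = 0.472), falling to 0.09 without Csn8AKO replicate 2 and reaching 1.02 without Ctrl replicate 1. With both left out it was 0.47 (adjusted p = 0.0858). Aim2 had 7.92, 2.84, 3.85 and 2.96 CPM in Ctrl and 7.13, 11.7, 4.14 and 3.22 CPM in Csn8AKO sWAT, with a log2 fold change of 0.58 (95% CI -0.45 to 1.61, edgeR adjusted p = 0.545) and of 0.60 (adjusted p = 0.295) with both left out. It was 0.14 without Csn8AKO replicate 2 alone and 1.03 without Ctrl replicate 1 alone. Csn8AKO replicate 1, whose T and NK cell sum was 47.3 CPM, had nearly as much Aim2 as Ctrl replicate 1.

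The remaining sWAT members overlapped between the genotypes. Cgas had 2.58, 1.72, 3.20 and 1.92 CPM in Ctrl and 3.75, 4.12, 2.34 and 2.54 CPM in Csn8AKO sWAT (log2 fold change 0.45, 95% CI -0.22 to 1.11, edgeR adjusted p = 0.458). Tbk1 ran from 37.6 to 41.2 CPM in Ctrl and from 37.8 to 46.6 CPM in Csn8AKO (log2 fold change 0.07, 95% CI -0.18 to 0.32, edgeR adjusted p = 0.800). Irf3 ran from 39.6 to 47.4 CPM in Ctrl and from 31.9 to 54.1 CPM in Csn8AKO (log2 fold change -0.06, 95% CI -0.44 to 0.31, edgeR adjusted p = 0.879). The sign of Tbk1 turned when both libraries with high T and NK cell markers were left out and that of Irf3 without Csn8AKO replicate 1, each to a value within 0.05 of 0.

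**Figure D3:**
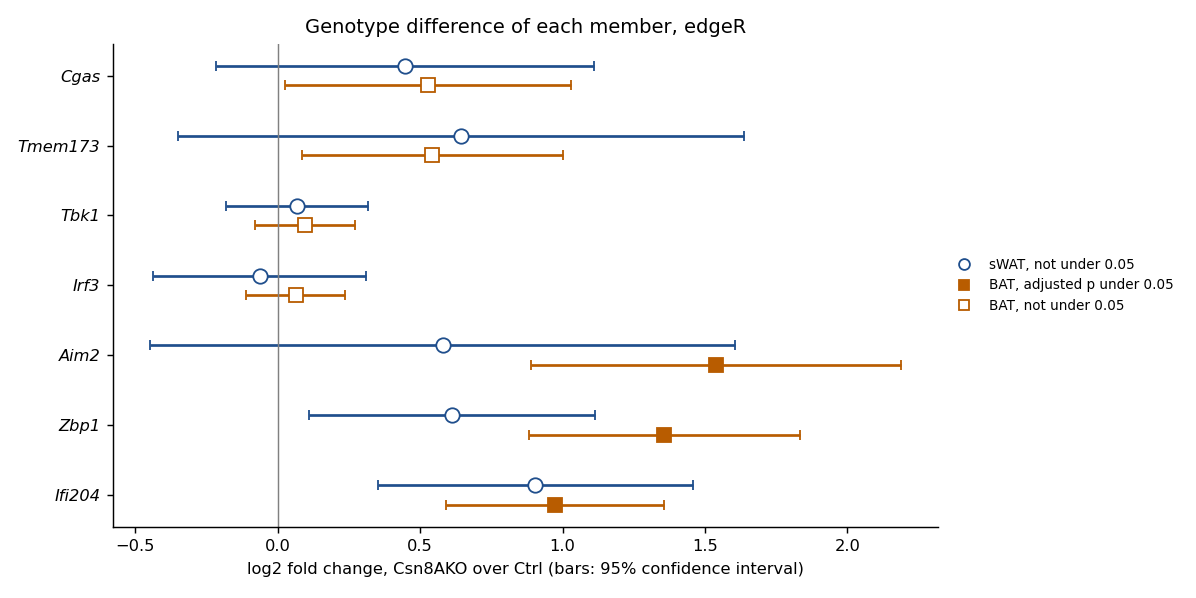
Log2 fold change of Csn8AKO over Ctrl for 7 members with 95% confidence intervals from edgeR, circles for sWAT (n = 4 against 4) and squares for BAT (n = 5 against 5), filled where the adjusted p was under 0.05. Aim2, Zbp1 and Ifi204 in BAT are the filled points, and the intervals of Tbk1 and Irf3 lie around 0 in both tissues.

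Whether the genotype difference itself differed between the tissues was tested by an interaction over all 18 libraries, in which 0 of 7 members were called. Of these, 1, Zbp1, had an unadjusted edgeR p under 0.05, a threshold at which the share of all genes was not counted. In that fit 1.61% of 22509 genes were called with a larger and 0.755% with a smaller log2 fold change in BAT, 2.36% in all. DESeq2 and limma voom also called 0 members. The BAT difference exceeded the sWAT difference by 0.72 for Zbp1 (95% CI 0.06 to 1.37, edgeR adjusted p = 0.271) and by 0.94 for Aim2 (95% CI -0.19 to 2.06, adjusted p = 0.434) on the log2 scale. For Ifi204 the BAT difference exceeded the sWAT difference by 0.05 (95% CI -0.59 to 0.69, adjusted p = 0.966). A call in BAT and none in sWAT is thus not shown to be a difference between the tissues for any member.

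Markers of other cell types moved with the genotype. The 10 macrophage markers summed to 114 to 156 CPM in Ctrl BAT and to 368 to 517 CPM in Csn8AKO BAT, a difference of 1.66 on the log2 scale (two-sided exact permutation test, p = 0.00794, the smallest that 5 against 5 allows, adjusted over 11 lists p = 0.0218), and 9 of the 10 were called higher. In sWAT the sums were 1050 to 1436 CPM in Ctrl and 1763 to 3029 CPM in Csn8AKO, a difference of 0.96 (exact permutation p = 0.0286, the smallest that 4 against 4 allows, adjusted p = 0.0629), with 6 of 10 called higher. The T and NK cell sum in BAT ran from 5.03 to 9.13 CPM in Ctrl and from 11.0 to 17.0 CPM in Csn8AKO (exact permutation, adjusted p = 0.0218), with 4 of 10 markers called higher and 0 lower. In that order Cd4 ran from 0.678 to 1.38 and from 3.27 to 5.78 CPM, and Il7r from 0.339 to 0.775 and from 2.31 to 3.54 CPM. The ranges of Cd8a (0.161 to 0.379 and 0.253 to 0.434 CPM) and of Cd247 (1.74 to 4.39 and 0.928 to 2.64 CPM) overlapped. The fibroblast and progenitor sum in BAT ran from 1017 to 1752 CPM in Ctrl and from 2702 to 4648 CPM in Csn8AKO (exact permutation, adjusted p = 0.0218), with 7 of 7 called higher, and the neutrophil sum from 1.42 to 2.42 CPM and from 2.84 to 4.54 CPM (adjusted p = 0.0218), with 1 of the 2 markers tested called higher. None of the macrophage, T and NK cell or fibroblast markers stayed under 0.1 CPM in either tissue. In sWAT the adipocyte sum was lower, 4653 to 10243 CPM in Csn8AKO against 11121 to 16036 CPM in Ctrl, at an adjusted p of 0.0629 (exact permutation), with 3 of 8 markers called lower. At the same adjusted p, and also without overlap, stood the sWAT sums of neutrophil markers (5.92 to 8.92 CPM in Ctrl and 12.9 to 28.5 CPM in Csn8AKO), dendritic cell markers (99.2 to 151 CPM and 155 to 198 CPM) and brown adipocyte markers (44.8 to 67.4 CPM and 11.2 to 27.5 CPM). Of the neutrophil markers, 1 of 3 tested was called higher in sWAT and Ly6g was under 0.1 CPM, of the dendritic cell markers 0 of 8 were called, and of the brown adipocyte markers 1 of 5 was called lower. In BAT 4 of 5 mast cell and 4 of 8 dendritic cell markers were called higher, although their sums did not pass (exact permutation, adjusted p = 0.271 and 0.150). Kit alone had 15.8 to 56.4 CPM of the Ctrl BAT mast cell sums of 19.1 to 59.5 CPM, and 14.0 to 49.5 CPM in Csn8AKO. For Cpa3, Mcpt4, Cma1 and Tpsb2, every Csn8AKO BAT library lay above every Ctrl library. Of all genes tested, 16.0% were called higher in BAT, and 2.30% were called higher and 3.00% lower in sWAT. The part of these cells in the values of the members was not tested.

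**Figure D4:**
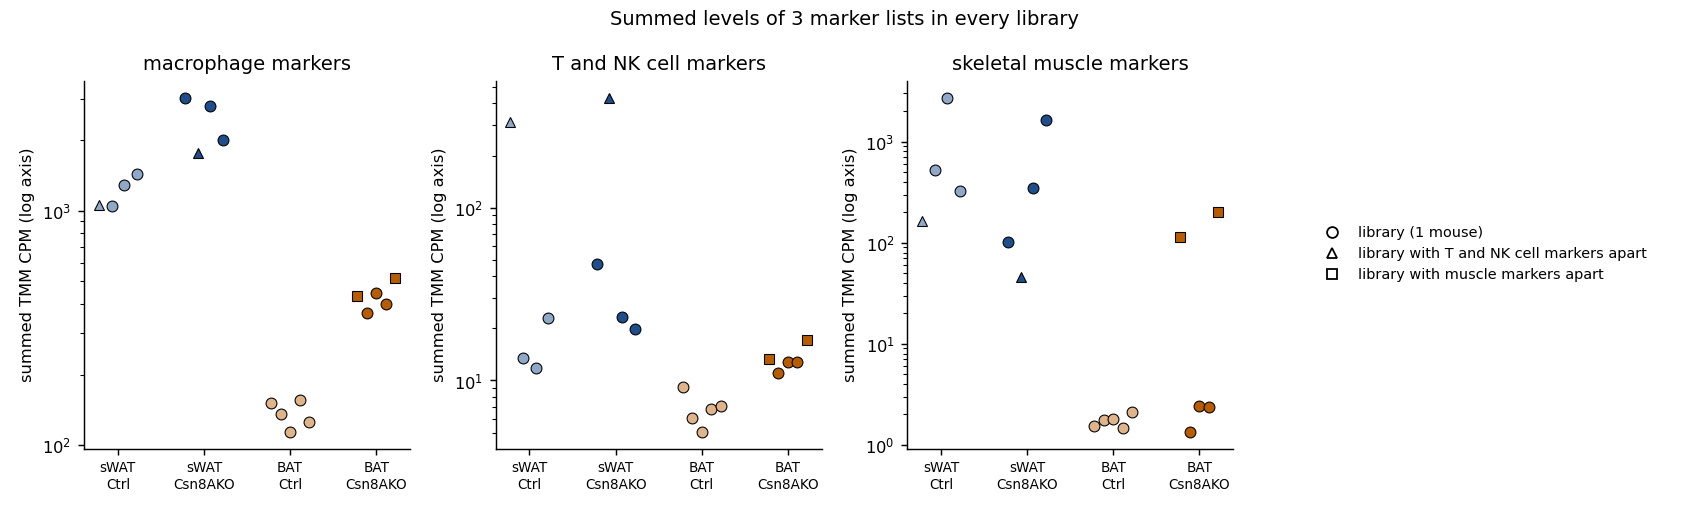
Summed TMM-scaled CPM of 10 macrophage, 10 T and NK cell and 6 skeletal muscle markers in every library, on log axes. Macrophage sums of Csn8AKO libraries lie above those of Ctrl libraries in both tissues, the 2 triangles stand apart in T and NK cell markers and the 2 squares in muscle markers.

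Among themselves, some of the members varied together within the groups and others did not. Over the 18 libraries, as deviations of log2 CPM from the 4 group means, Tmem173 followed Aim2 (Pearson r = 0.90), Zbp1 (r = 0.62) and Cgas (r = 0.61), and Aim2 followed Cgas (r = 0.72) and Zbp1 (r = 0.67). Without the 2 libraries with high T and NK cell markers the values were 0.73, 0.77, 0.58, 0.75 and 0.71. Irf3 and Tbk1 followed each other (r = 0.60, and 0.54 without the 2 libraries). Irf3 against Tmem173 turned from 0.45 to -0.60 without those 2 libraries and Irf3 against Aim2 from 0.30 to -0.73. Zbp1 against Cgas had r = 0.30 with and without them. Ifi204 had r between -0.44 (Irf3) and 0.21 (Cgas) with the other members over 18 libraries. Without those 2 libraries its r lay between -0.35 (Irf3) and 0.53 (Aim2). These values share their libraries and scaling and are given as a description.

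Among 13210 other named protein-coding genes tested in both tissues, the 3 whose deviations were most like those of each member were the following. For Tmem173 they were Fgr (r = 0.98), Dennd1c (r = 0.96) and Gimap9 (r = 0.95), which had r = 0.93, 0.89 and 0.83 over the 16 libraries left without the 2 named above. For Aim2 they were Slfn8, Ppip5k2 and Slc35b3 (r = 0.93 to 0.94, and 0.85 to 0.87 over 16). Lilra5, Mgat2 and Plcl2 were most like Cgas (r = 0.82 to 0.86, and 0.79 to 0.92 over 16), and Cdc20, Wdr86 and Batf3 most like Zbp1 (r = 0.86 to 0.87, and 0.79 to 0.84 over 16). Taf5, Slc30a4 and Tlr8 were most like Ifi204 (r = 0.86 to 0.88, and 0.84 to 0.86 over 16), Atg2b, Hsph1 and Ep300 most like Tbk1 (r = 0.82 to 0.86, and 0.77 to 0.81 over 16), and Zgpat, Cnot3 and Hip1r most like Irf3 (r = 0.94 to 0.95, and 0.84 to 0.87 over 16). Most of these genes were not the closest 3 when the choice was made over the 16 libraries, where 3 of the 21, Mgat2 for Cgas, Fgr for Tmem173 and Atg2b for Tbk1, were again among them.

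The rest of the pathway was followed in 9 lists of 122 genes in all, without the members. In BAT, 28 of the 117 tested were called higher and 17 lower, against 16.0% and 15.8% of all genes, and the median log2 fold change was 0.09 against 0.01 over all genes tested. In sWAT, 5 of 118 were called higher and 3 lower, against 2.30% and 3.00% of all genes, with a median log2 fold change of 0.15 against 0.03. The sWAT count of 8 fell to 2 without Ctrl replicate 2, to 1 without Ctrl replicate 3, to 2 without Ctrl replicate 4, to 2 without Csn8AKO replicate 1 and to 1 without Csn8AKO replicate 3, and it was 17, 13 higher and 4 lower, without both libraries with high T and NK cell markers. The gene called in sWAT under all of its 18 alternatives was Cxcl10. In the interaction 0 of 119 pathway genes were called with a larger and 1, Smpdl3a, with a smaller log2 fold change in BAT (difference -0.93, edgeR adjusted p = 0.0403). That call was lost in 17 of 27 alternatives and in 15 of the 18 that left out a single library, standing without sWAT Csn8AKO replicate 2 or 4 or BAT Csn8AKO replicate 2, and the difference ran from -1.12 to -0.69 (adjusted p from 0.00102 to 0.0838) over those 18.

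**Figure D5:**
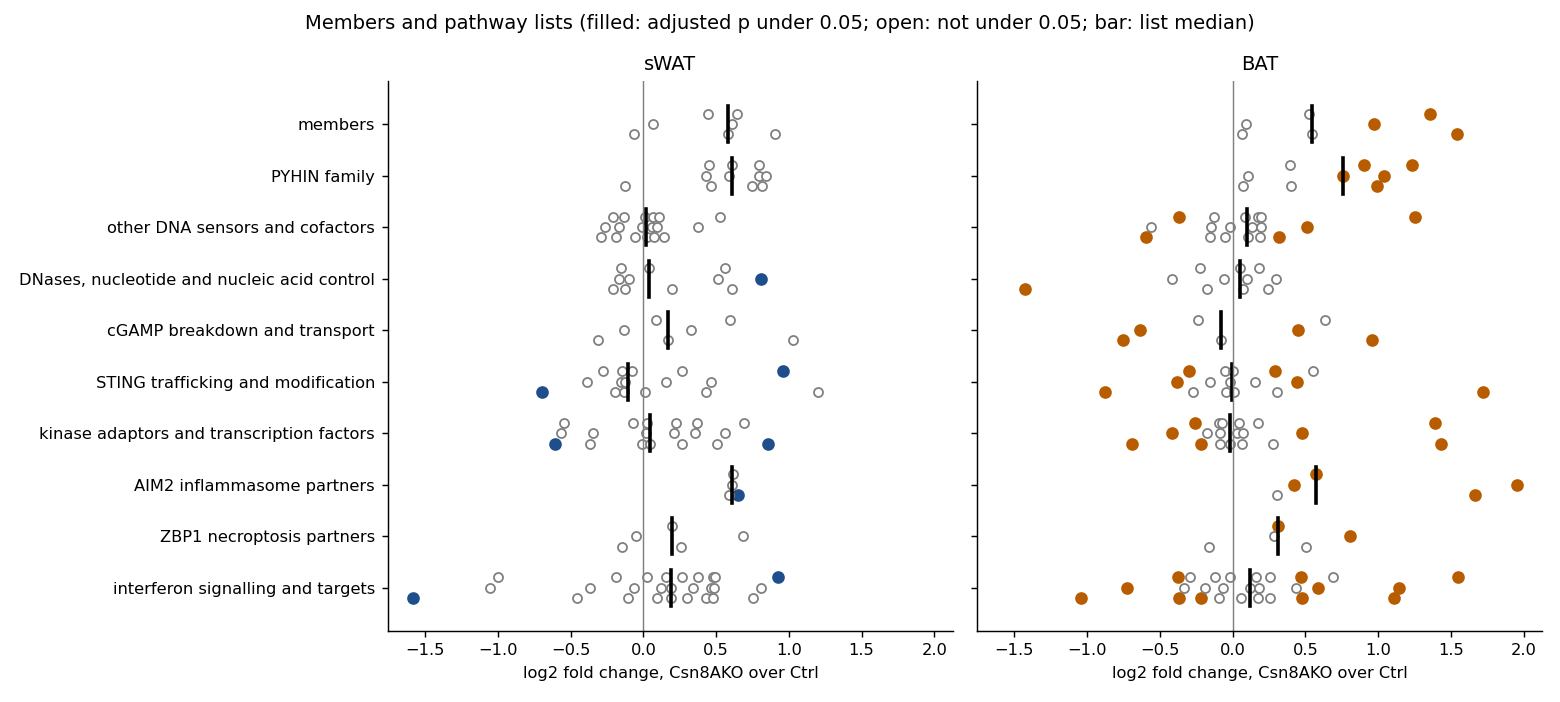
Log2 fold change of Csn8AKO over Ctrl for each gene of the members and of 9 pathway lists that was tested, in sWAT and in BAT, filled where the adjusted p was under 0.05, with a bar at the median of each list. In BAT the called genes among the members, of the PYHIN family and of the AIM2 and ZBP1 partners all lie above 0, whereas the other lists hold called genes on both sides or below 0.

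The PYHIN relatives of Aim2 and Ifi204 had positive log2 fold changes in 9 of 9 genes tested in BAT, with a list median of 0.76. Of these, 5 were called higher and 0 lower, against 16.0% and 15.8% of all genes. Ifi207 rose from 11.9 ± 3.1 to 23.7 ± 3.1 CPM (SD, n = 5 each, log2 fold change 0.99, edgeR adjusted p = 3.91e-04) and Ifi205 from 3.36 ± 0.71 to 7.93 ± 2.2 CPM (a log2 fold change of 1.23 at an edgeR adjusted p of 4.85e-04). Ifi211, which shares sequence with Ifi204, had a log2 fold change of 0.90 in BAT (edgeR adjusted p = 0.00751). The log2 fold changes of Ifi203 and Mndal in BAT were 0.10 and 0.07 and did not pass. In sWAT 10 of 11 relatives had positive log2 fold changes, with a median of 0.61, and 0 were called in edgeR, against 5.31% of all genes. Ifi204 shared stretches of 150 bases with Ifi211 and Aim2 shared none. The other relatives were not checked against each other, and whether the counts of the family are independent was not tested.

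The inflammasome partners of AIM2 were called higher in BAT in 4 of 5 genes, against 16.0% of all genes. Casp1, the caspase activated by the inflammasome, rose from 0.477 ± 0.14 to 1.51 ± 0.46 CPM (SD, n = 5 each, log2 fold change 1.66, edgeR adjusted p = 3.26e-04), and Il18, a cytokine that it cleaves, rose from 0.221 ± 0.11 to 0.840 ± 0.11 CPM (a log2 fold change of 1.95 at an edgeR adjusted p of 7.49e-04). Il18 was near the floor in Ctrl BAT, with 0.0645 to 0.362 CPM per library. Gsdmd, whose product forms pores in pyroptosis, rose in BAT by a log2 fold change of 0.57 (edgeR adjusted p = 0.00271), and Pycard, which encodes ASC, by 0.42 (adjusted p = 0.0369). Il1b was not called in BAT (log2 fold change 0.30, edgeR adjusted p = 0.696). In sWAT Gsdmd was called higher, from 19.96 ± 3.1 to 31.3 ± 4.6 CPM (SD, n = 4 each, log2 fold change 0.65, edgeR adjusted p = 0.0460), and lost that call in 9 of 18 alternatives, among them without Ctrl replicate 2, 3 or 4 or Csn8AKO replicate 1, 2 or 3. Of the necroptosis partners of ZBP1, Ripk3 rose in BAT from 3.20 ± 0.49 to 5.58 ± 1.5 CPM (a log2 fold change of 0.81 at an edgeR adjusted p of 0.00703) and Ripk1 from 29.0 ± 2.6 to 36.1 ± 2.2 CPM (a log2 fold change of 0.31 at an adjusted p of 0.00883). Mlkl, Casp8 and Fadd were not called in either tissue. The call of Ripk3 was lost when both BAT libraries with muscle markers were left out.

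Among 18 other DNA sensors and cofactors, 3 were called higher and 2 lower in BAT, against 16.0% and 15.8% of all genes. In sWAT 0 were called, against 5.31% of all genes. Lrrfip1, a nucleic acid binding protein, rose in BAT from 19.6 ± 1.6 to 46.7 ± 11 CPM (SD, n = 5 each, log2 fold change 1.25, edgeR adjusted p = 3.31e-05) and G3bp1, a stress granule protein that assists cGAS, from 65.4 ± 1.1 to 81.7 ± 4.2 CPM (a log2 fold change of 0.32 at an adjusted p of 0.00170). Prkdc, the catalytic subunit of DNA-dependent protein kinase, fell from 51.1 ± 2.7 to 33.8 ± 6.6 CPM (a log2 fold change of -0.60 at an edgeR adjusted p of 0.00104) and Hmgb1, a chromatin protein, from 81.6 ± 3.3 to 63.1 ± 7.8 CPM (a log2 fold change of -0.37 at an adjusted p of 0.00477). The call of Hmgb1 was lost when counts were scaled by library size alone.

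Among genes that break down or control nucleic acids, 1 of the 11 tested was called in each tissue. Of all genes tested, 5.31% were called in sWAT and 31.9% in BAT. In sWAT, Dnase2a, the lysosomal DNase, rose from 16.1 ± 2.8 to 28.3 ± 5.8 CPM (SD, n = 4 each, log2 fold change 0.81, edgeR adjusted p = 0.0330), a call lost in 7 of 18 alternatives, among them without Ctrl replicate 1, 2 or 3 or Csn8AKO replicate 1 or 3. In BAT, Dnase1l3, a secreted DNase, fell from 0.624 ± 0.33 to 0.207 ± 0.14 CPM (SD, n = 5 each, log2 fold change -1.43, edgeR adjusted p = 0.0256), a call lost in 5 of 19 alternatives, among them without Ctrl replicate 1 or 3 or Csn8AKO replicate 3 or 5. Of 7 genes tested for cGAMP breakdown and transport, 2 were called higher and 2 lower in BAT, against 16.0% and 15.8% of all genes. P2rx7, an ATP-gated channel, rose from 3.71 ± 0.33 to 7.21 ± 1.2 CPM (a log2 fold change of 0.96 at an edgeR adjusted p of 1.27e-04), and Lrrc8c, a subunit of the volume-regulated anion channel that passes cGAMP, from 26.2 ± 5.4 to 35.7 ± 4.7 CPM (a log2 fold change of 0.45 at an adjusted p of 0.0257). Smpdl3a, a phosphodiesterase, fell from 58.0 ± 4.1 to 34.5 ± 4.2 CPM (a log2 fold change of -0.75 at an edgeR adjusted p of 3.29e-05), and Abcc1, an export pump, from 73.6 ± 9.5 to 47.4 ± 7.1 CPM (a log2 fold change of -0.63 at an adjusted p of 8.11e-04). The call of Lrrc8c was lost without BAT Ctrl replicate 2, Csn8AKO replicate 4 or Csn8AKO replicate 5.

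Of 16 genes of STING trafficking and modification, 3 were called higher and 3 lower in BAT, against 16.0% and 15.8% of all genes. In sWAT 1 was called in each direction, against 2.30% of all genes called higher and 3.00% lower. Dtx4, a ubiquitin ligase that acts on TBK1, rose in BAT from 7.12 ± 0.90 to 23.5 ± 3.7 CPM (SD, n = 5 each, log2 fold change 1.72, edgeR adjusted p = 6.75e-07) and in sWAT from 25.6 ± 0.83 to 49.9 ± 13 CPM (n = 4 each, log2 fold change 0.96, adjusted p = 0.0178). Nlrx1, a mitochondrial NLR protein that restrains STING, fell in BAT from 18.8 ± 2.5 to 10.2 ± 2.8 CPM (a log2 fold change of -0.88 at an edgeR adjusted p of 0.00104) and in sWAT from 20.7 ± 3.6 to 12.8 ± 1.3 CPM (a log2 fold change of -0.69 at an adjusted p of 0.0353). In BAT, Rhbdf2, a rhomboid-like carrier of STING, rose by a log2 fold change of 0.29 (edgeR adjusted p = 0.0185), and Trim56, a ubiquitin ligase, fell by 0.30 on the log2 scale (adjusted p = 0.0160). The sWAT call was lost in 7 of 18 alternatives for Dtx4 and in 8 of 18 for Nlrx1, for both without Ctrl replicate 2, 3 or 4 or Csn8AKO replicate 1 or 3 and for Nlrx1 also without Csn8AKO replicate 4, whereas both BAT calls stood in 20 of 20. The calls of Rhbdf2 and Trim56 were lost when both BAT libraries with muscle markers were left out, that of Trim56 also under scaling by library size alone, and that of Rhbdf2 also with no filter on low counts, with all 4 groups in one fit and without BAT Ctrl replicate 3 or Csn8AKO replicate 4.

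Around TBK1 and IRF3, 3 of 19 adaptors and transcription factors were called higher and 4 lower in BAT, against 16.0% and 15.8% of all genes. In sWAT 1 was called in each direction, against 2.30% of all genes called higher and 3.00% lower. Ikbke, the kinase closest to TBK1, rose in BAT from 2.54 ± 0.49 to 6.88 ± 1.9 CPM (SD, n = 5 each, log2 fold change 1.43, edgeR adjusted p = 1.47e-04). Irf5, an interferon regulatory factor of myeloid cells, rose in BAT from 2.86 ± 0.33 to 7.49 ± 1.4 CPM (a log2 fold change of 1.39 at an edgeR adjusted p of 2.14e-05) and in sWAT from 24.3 ± 3.0 to 44.0 ± 7.7 CPM (n = 4 each, log2 fold change 0.86, adjusted p = 0.0143). Tbkbp1, a TBK1 scaffold, fell in BAT from 80.8 ± 6.5 to 50.1 ± 5.9 CPM (a log2 fold change of -0.69 at an edgeR adjusted p of 6.50e-05), and Optn, an autophagy receptor phosphorylated by TBK1, from 102 ± 11 to 76.6 ± 7.4 CPM (a log2 fold change of -0.42 at an adjusted p of 0.00305). Mavs, the adaptor of the RNA sensors, fell in sWAT from 59.1 ± 11 to 38.7 ± 4.1 CPM (a log2 fold change of -0.61 at an edgeR adjusted p of 0.0486). The sWAT calls were lost in 5 of 18 alternatives for Irf5, among them without Ctrl replicate 3 or 4 or Csn8AKO replicate 3, and in 11 of 18 for Mavs, among them without any single library other than Ctrl replicate 1. The BAT call of Optn was lost under scaling by library size alone and with all 4 groups in one fit.

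The interferon genes downstream were called in both directions. Ifnb1, the interferon gene of the list, had 0 CPM in all 18 libraries and was not tested. In BAT, 6 of the 27 tested were called higher and 5 lower, against 16.0% and 15.8% of all genes, and 16 were not called. The list median log2 fold change was 0.12 against 0.01 over all genes. Oas3 rose from 0.568 ± 0.11 to 1.27 ± 0.19 CPM (SD, n = 5 each, log2 fold change 1.14, edgeR adjusted p = 9.53e-04) and Oas1a from 1.10 ± 0.28 to 2.34 ± 0.51 CPM (a log2 fold change of 1.11 at an adjusted p of 0.00155), both encoding synthases of 2-5A, the activator of RNase L. Cxcl10, a chemokine induced by interferon and by IRF3, fell in BAT from 6.13 ± 0.76 to 2.95 ± 0.63 CPM (a log2 fold change of -1.04 at an edgeR adjusted p of 2.97e-04) and in sWAT from 15.3 ± 3.3 to 5.10 ± 0.95 CPM (n = 4 each, log2 fold change -1.58, adjusted p = 0.00396), the groups not overlapping in either tissue. Ifnar2, a subunit of the type I interferon receptor, fell in BAT from 44.7 ± 2.8 to 34.7 ± 1.9 CPM (a log2 fold change of -0.37 at an edgeR adjusted p of 0.00147), a call lost under scaling by library size alone. In sWAT Oasl1 was the gene called higher, from 5.58 ± 0.98 to 10.6 ± 2.3 CPM (a log2 fold change of 0.93 at an edgeR adjusted p of 0.0362, lost in 7 of 18 alternatives, among them without Ctrl replicate 2, 3 or 4 or Csn8AKO replicate 1 or 3), and Cxcl10 the gene called lower. The macrophage marker sum was higher in the same Csn8AKO libraries as the genes of these lists that rose, and the part of macrophages in the lists was not tested.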

How the data were processed

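Total RNA of 18 mice was depleted of ribosomal RNA, copied from random hexamers and sequenced as paired reads of 150 bases. Alignment by the authors was to GRCm38 (mouse) with STAR, and they counted uniquely aligned, unambiguous reads on 55487 Ensembl genes with featureCounts. For each library the authors deposited raw counts together with CPM, FPKM and TPM, all made from the counts. The deposited CPM and FPKM were recomputed from the counts without a difference beyond rounding and, like the TPM, were not used further.

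Symbols and exons were taken from the mouse annotation given for GRCm38. Genotypes were compared within each tissue on the deposited counts. The fits used edgeR 4.0.16 (R 4.3.3) with TMM factors, filterByExpr (minimum count 10, minimum total 15) and its robust quasi-likelihood test, p-values were adjusted by Benjamini-Hochberg over all genes tested, and tissues were compared by the interaction over 18 libraries. SE is the log2 fold change divided by the square root of F. The authors used DESeq2, which was run here as an alternative (DESeq2 1.42.0), as was limma 3.58.1 (voom). Marker sums were compared on log2(CPM + 0.5) by two-sided exact permutation tests. Alternatives were other scaling, filters, tools, all groups in one fit, no ribosomal RNA genes, the replicate number as a term and each library left out. Added after seeing the data were fits without the libraries rich in lymphocyte or muscle markers. Levels between genes are per kb of exon. The fits were tested on simulated data. Reads are not independent molecules, and no interval covers more than the spread between these mice. No batch is given in the labels.

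The named genes are the 8 members, for each pathway list and tissue the 2 genes called higher and the 2 called lower with the lowest adjusted p, the 3 named protein-coding genes most like each member, Cops8, and defining markers. Ifi211, Ifi203, Mndal, Pycard, Gsdmd in BAT, Il1b, Mlkl, Casp8, Fadd, Ifnb1, Cd14, Mertk and Atrip were named after their values were seen. So were Cd4, Il7r, Cd8a, Cd247, Kit, Cpa3, Mcpt4, Cma1, Tpsb2, Csf3r and Cxcr2. The members and all lists were chosen with earlier results of these data known.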

Additional observations from a re-analysis of the deposited data

Results flagged for a closer look

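Of 28 sets of values, 7 members in 4 groups, 4 held a library far from the others of its group, and chance alone flags about 1 set in 20. Tmem173 was highest by far in 2 sWAT libraries, with 27.1 CPM in Ctrl replicate 1 (next value 12.6) and 48.9 CPM in Csn8AKO replicate 2 (next value 18.8). These are the 2 libraries with high T and NK cell and B cell markers, whose part in the Tmem173 values was not tested. In Csn8AKO BAT, Aim2 was lowest by far in replicate 2, with 0.552 CPM (next value 1.31, from 14 reads), the library with the highest ribosomal RNA share in BAT, 15.2%. Tbk1 was lowest in Csn8AKO BAT replicate 4, with 36.1 CPM (next value 39.9). The log2 fold change of Aim2 in BAT was 1.71 without Csn8AKO replicate 2, and that of Tbk1 in BAT was not called without any single library.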

How the results depend on the processing

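The count of members called in sWAT went from 0 to 1 with DESeq2 (4.84% of genes called higher), limma voom (5.72%), all 4 groups in one fit (4.64%) and both libraries with high T and NK cell markers left out (5.35%), and ran from 0 to 1 with each library left out, the 1 without Ctrl replicate 1 (1.96%). The gene was Ifi204 with DESeq2 and all groups together, and Zbp1 in the others. In BAT the count of 3 went to 5 with limma voom (20.1% of genes called higher), which added Tmem173 and Cgas, and ran from 3 to 4 with each library left out. In the interaction it was 0 in all 27 alternatives. Of 266 refits of single members, 253 kept direction and side of the threshold, 11 newly passed, 0 lost a call and 2 turned in sign, Tbk1 in sWAT to -0.018 without both libraries with high T and NK cell markers and Irf3 in sWAT to 0.033 without Csn8AKO replicate 1, its range being -0.24 to 0.033 with each library left out. Pathway genes called in sWAT went from 8 to 1 by library size alone, 18 with DESeq2, 15 with limma voom, 22 with all groups, 17 without both libraries with high T and NK cell markers and 1 with the replicate block, and ran from 1 to 9 with each library left out. In BAT they ran from 34 to 58 around 45, and from 35 to 52 with each library left out. The macrophage sum difference in BAT ran from 1.60 to 1.72 with each library left out and was 1.57 without both libraries with muscle markers, with 5 against 3 libraries and an adjusted exact permutation p of 0.0982. In sWAT it ran from 0.84 to 1.10, where 4 against 3 cannot give an exact p under 0.05. The cause of these shifts was not tested. Same-numbered Ctrl and Csn8AKO libraries correlated by -0.39 to 0.22 in sWAT and by -0.10 to 0.10 in BAT, so the numbers were not taken as pairs. No sWAT Ctrl library correlated best with the Csn8AKO library of its own number, and in BAT only Ctrl replicates 1 and 5 did. The replicate block left 0 members called in sWAT and 3 in BAT, and changed the genes called in sWAT from 434 higher and 566 lower to 134 and 165. Among the members, depth limits Aim2, Cgas and Zbp1 in BAT, with 14 to 250 reads per library.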
